A study of Drosophila melanogaster with 3 samples.

Results

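The calcineurin and egg activation genes are a set of 9 Drosophila genes, made up of the calcineurin subunits CanB, CanB2, CanA1, CanA-14F and Pp2B-14D, the calcineurin regulator sra, and plu, png and gnu of the PNG kinase. Array spots were taken as members where the platform's gene symbol, updated to its current form, was one of these names. This gave 7 spots, 1 for each of 7 genes, and 7 of the 9 genes could therefore be tested. The 10183 features tested were 8177 named genes, 609 spots of several genes and 1397 unnamed spots. The annotation used here names no spot for CanA-14F or plu on its own.

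Wounded and unwounded embryos were compared to find transcripts that change during wound repair in the syncytial embryo, where many nuclei share 1 cytoplasm. Eggs laid within 0 to 1 h were dechorionated by hand, kept in halocarbon oil and either ablated with a laser or handled in the same way without ablation, and both groups were frozen 30 min later. All embryos carried sGMCA, an actin reporter made of the actin-binding part of moesin fused to GFP and expressed from the spaghetti squash promoter. Total RNA of both groups, 30 ug each, was labelled and hybridised together on a spotted cDNA array in each of 3 independent experiments, numbered 3, 4 and 5. Wounded RNA carried Cy3 and unwounded RNA Cy5 on all 3 arrays, so a dye difference and a wound difference cannot be told apart. How many embryos each RNA came from is not given in the sources used here. RNA of whole embryos was measured, so fewer embryos carrying a transcript and less of it in each embryo cannot be told apart either.

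Calcineurin is a phosphatase that is switched on by calcium. A catalytic A subunit, which binds calmodulin, works together with a regulatory B subunit, which binds calcium itself. Calcium enters the Drosophila egg as it is laid, and calcineurin, with its B subunit CanB2 and its regulator sra, acts in this egg activation, after which meiosis is completed. PNG is a kinase that is active at the same transition, with PLU and GNU as activating subunits, and it is needed for translation of maternal cyclin B RNA and for clearance of maternal RNAs. Calcium also enters through a wound in the cortex, which is why transcripts of the calcium-activated phosphatase are of interest in this comparison.

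Each value below is a log2 ratio per spot and array, loess normalized by the authors, with positive values read as higher in wounded embryos. This direction is likely rather than stated. It rests on the genes that the study names as raised or lowered, since all 12 of the tested raised genes were above 0 and all 13 of the tested lowered genes were below 0. ImpL2, for example, had a mean log2 ratio of 1.36 and geko 1.19, whereas Cyp6a19 had -1.39 and dhd -1.35. With the opposite reading, every direction given below turns around. Means are given ± SD with n = 3 arrays, and a gene was called where its limma adjusted p was under 0.05 and its fold reached 1.5, which is 0.58 on the log2 scale.

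None of the 7 genes was called higher or lower in limma. Of all features tested, 2.33% were called, 0.648% higher and 1.68% lower. With no fold minimum 0 of the 7 passed (3.16% of all features were then lower), and at an adjusted p under 0.10 the fold minimum again left 0 (3.13% of all features). CanB2, CanB and gnu passed where that adjusted p was used without a fold minimum, as did 10.4% of all features. At an unadjusted limma p under 0.05, 3 of the 7 genes were lower, namely CanB2, CanB and gnu, and 0 were higher, against 14.9% and 10.1% of all features. Mean log2 ratios were below 0 for 6 of the 7, and the median of the 7 was -0.29, compared with 0.0014 over all features. On the single arrays the median was -0.34, -0.25 and -0.22 in experiments 3, 4 and 5. Of the 7 genes, 4 were below 0 on all 3 arrays, 0 were above 0 on all 3, and 3 had mixed signs. All features were below 0 on all 3 arrays in 25.0% and above 0 in 25.3% of cases. The 7 genes were chosen with earlier results of these arrays known, so their counts are a description of the set.

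**Figure D1:**
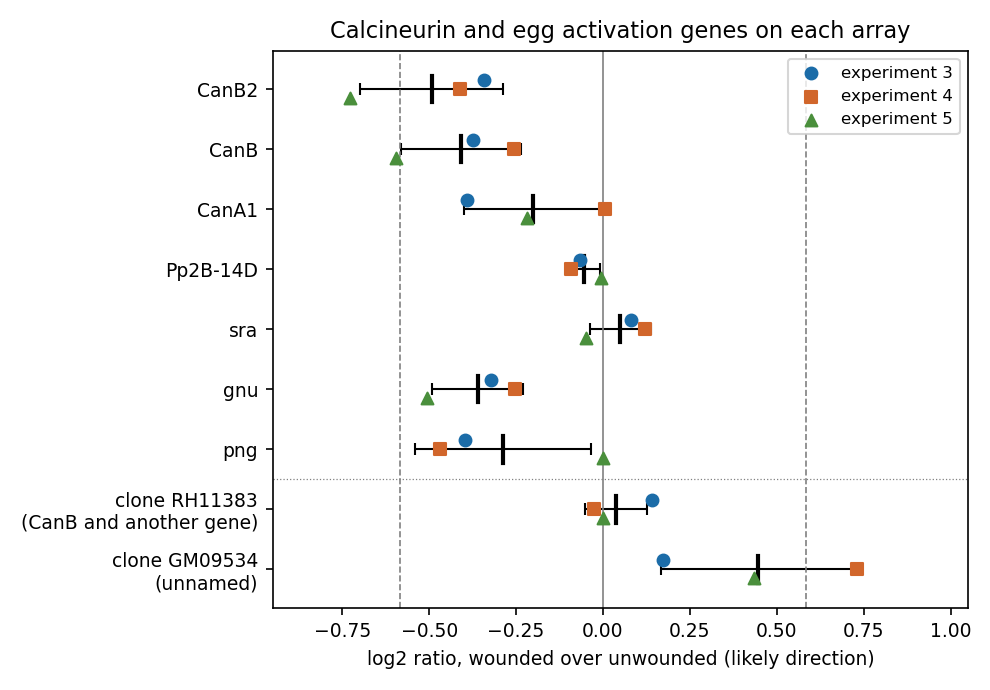
Log2 ratio of wounded over unwounded embryos (x axis, likely direction) for the 7 tested genes and, below the dotted line, 2 further clones. Points are single arrays, the thick black mark is the mean and the bar ± SD (n = 3), and dashed lines mark a 1.5-fold change. CanB2, CanB and gnu lie below 0 on every array and are lowest in experiment 5, and the means of all 7 genes lie inside the dashed lines.

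Among the spots named for 1 calcineurin subunit, those of the regulatory B subunits had the lowest mean ratios. CanB2, the B subunit with a known role in the egg, had a log2 ratio of -0.34 in experiment 3, -0.41 in experiment 4 and -0.73 in experiment 5. All 3 arrays were thus below 0, and experiment 5 stood apart from the others on the low side. The mean of CanB2 was -0.49 ± 0.21, which is 1.41-fold lower, with a 95% interval of -0.75 to -0.24 from the moderated fit. Its unadjusted p was 0.00441, the 644th smallest of 10183, and its limma adjusted p was 0.0698. The p-value therefore missed the threshold, as did the size of the change, since called genes had an adjusted p of at most 0.0493. Of all features, 4.10% had a lower mean.

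CanB, the other B subunit, gave -0.38, -0.26 and -0.60 in experiments 3, 4 and 5. Its ratios were below 0 on all arrays as well, and again lowest in experiment 5. The mean was -0.41 ± 0.17, or 1.33-fold lower (95% interval -0.64 to -0.18), with an unadjusted p of 0.00634 and a limma adjusted p of 0.0817. CanB2 minus CanB was -0.084 ± 0.10 on average, but the difference changed sign between arrays, being 0.034 in experiment 3, -0.16 in experiment 4 and -0.13 in experiment 5 (exact sign-flip test, two-sided, p = 0.5). With 3 arrays this test cannot give a p below 0.25, so that no difference between a pair of genes could pass it.

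The value of CanB depended on the clone. The spot named for CanB alone carries clone RH02643. Another clone, RH11383, is annotated to CanB together with a gene elsewhere in the genome, and was not counted as a member, although RefSeq also lists this clone's name among the synonyms of CanB. RH11383 had log2 ratios of 0.14, -0.027 and -0.00027 in experiments 3, 4 and 5, with a mean of 0.038 ± 0.090 (limma adjusted p = 0.759). It was thus close to 0 where RH02643 was low. RH02643 was below RH11383 on all 3 arrays, with a mean difference of -0.45 ± 0.19 (exact sign-flip test, two-sided, p = 0.25, the smallest possible). Averaging both clones, a choice made after seeing the data, gave CanB a mean of -0.19 with an unadjusted p of 0.0484 (limma adjusted p = 0.198). Which of the clones follows the CanB transcript was not tested.

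Of the catalytic A subunits, CanA1 and Pp2B-14D had spots of their own. CanA1 had -0.39 in experiment 3, 0.0044 in experiment 4 and -0.22 in experiment 5, so that 2 arrays were low and 1 was at 0. Its mean was -0.20 ± 0.20, or 1.15-fold lower (limma adjusted p = 0.267). It moved to -0.31 without experiment 4 and to -0.11 without experiment 3, and was not called in either case. Pp2B-14D had -0.067, -0.092 and -0.0043 in experiments 3, 4 and 5, and with an SD of 0.045 it was the least variable of the 7 genes. Its mean of -0.054 had a 95% interval of -0.22 to 0.11 (limma adjusted p = 0.615), which leaves room for a change of up to 0.22 downward on the log2 scale but not for the 1.5-fold of the threshold. Pp2B-14D exceeded CanA1 in experiments 3 and 5 but not in experiment 4, by 0.15 ± 0.22 on average (exact sign-flip test, two-sided, p = 0.5).

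The third catalytic subunit gene, CanA-14F, lies directly next to Pp2B-14D in the RefSeq gene order. Clone GM09534 has no name in the platform annotation, and other annotation given with the study pairs it with CanA-14F. It was tested as an unnamed spot, and is not among the 7 members. It had log2 ratios of 0.17, 0.73 and 0.43 in experiments 3, 4 and 5, above 0 on all arrays and highest in experiment 4. The mean of GM09534 was 0.45 ± 0.28 (unadjusted p = 0.0149, limma adjusted p = 0.118), with 97.2% of all features below it. It did not pass the test, and the neighbouring Pp2B-14D was near 0 on the same arrays. cDNA clones of genes with similar sequence can cross-hybridise, and the extent of this between the A subunit clones was not tested.

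Averaged within each array, the B subunits CanB and CanB2 had -0.36, -0.33 and -0.66, and the A subunits CanA1 and Pp2B-14D -0.23, -0.044 and -0.11, in experiments 3, 4 and 5. The B subunit average was the lower one on all 3 arrays. The difference was -0.32 ± 0.21, smallest in experiment 3 and largest in experiment 5. The exact sign-flip test gave its smallest possible p of 0.25 (two-sided, adjusted p = 0.5 over the 6 pairs compared). The single genes did not follow this on every array. In experiment 3 the A subunit CanA1 (-0.39) was below both CanB (-0.38) and CanB2 (-0.34). RH11383 and GM09534 are not part of these averages. With CanB as the mean of both of its clones, a choice made after seeing the data, the difference was -0.00021 in experiment 3, -0.23 in experiment 4 and -0.40 in experiment 5, with a mean of -0.21 ± 0.20, so that in experiment 3 the B and A subunits had the same ratio.

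The product of sra binds calcineurin and can both limit and support its activity, and is needed for egg activation. Its spot had 0.080 in experiment 3, 0.12 in experiment 4 and -0.050 in experiment 5. The signs were mixed and all 3 values were near 0. The mean of sra was 0.050 ± 0.089, which did not pass (limma adjusted p = 0.676), with a 95% interval of -0.13 to 0.23 that lies inside a 1.5-fold change on either side. It was above the mean of CanB and CanB2 on every array, by 0.50 ± 0.096 (exact sign-flip test, two-sided, p = 0.25, the smallest possible, and adjusted p = 0.5 over the 6 pairs). With CanB as the mean of both of its clones, a choice made after seeing the data, this difference was 0.39 ± 0.077. Of the 7 genes, sra was the 1 with a mean above 0.

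Of the PNG kinase, the catalytic subunit png and the activating subunit gnu were measured. GNU is the subunit through which the start of PNG activity is timed at egg activation. The gnu spot had -0.32, -0.25 and -0.51 in experiments 3, 4 and 5. These were all below 0 and lowest in experiment 5, as for both B subunits. The mean of gnu was -0.36 ± 0.13, or 1.28-fold lower (95% interval -0.56 to -0.16), with an unadjusted p of 0.00616 and a limma adjusted p of 0.0802.

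The png spot had -0.40 in experiment 3, -0.47 in experiment 4 and 0.0011 in experiment 5, and so was low on 2 arrays and at 0 on the array where gnu, CanB and CanB2 were lowest. The mean of png was -0.29 ± 0.25, or 1.22-fold lower (unadjusted p = 0.0520, limma adjusted p = 0.204), and its SD was the largest of the 7. Without experiment 5 its mean was -0.43 (unadjusted p = 0.00830, limma adjusted p = 0.182), and without experiments 3 and 4 it was -0.23 and -0.20. The difference between png and gnu was 0.073 ± 0.38, with png lower on 2 arrays and higher on 1 (exact sign-flip test, two-sided, p = 1).

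**Figure D2:**
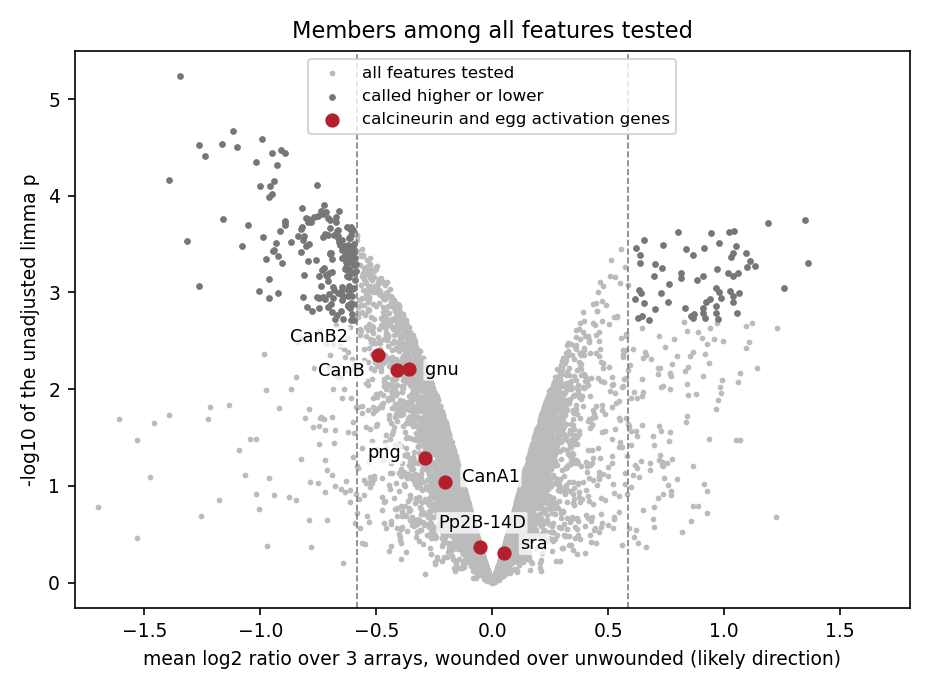
Mean log2 ratio over 3 arrays (x axis) against -log10 of the unadjusted limma p (y axis) for all 10183 features tested, of which 3 with a mean beyond 1.8 in size are not shown. Dark grey points are the called features, dashed lines mark a 1.5-fold change, and red points are the 7 calcineurin and egg activation genes. CanB2, CanB and gnu lie below the called features on the lower side, and sra and Pp2B-14D at the bottom of the plot near 0.

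From the lowest to the highest mean, the order was CanB2, CanB, gnu, png, CanA1, Pp2B-14D and sra. Neighbours in this order differed by 0.15 or less on the log2 scale, and the SDs of the genes ran from 0.045 to 0.25, so that the order of neighbours cannot be relied upon. Of the 7 genes, 4 had their lowest value in experiment 5, 2 in experiment 4 and 1 in experiment 3, while 28.5%, 46.3% and 25.2% of all features did so. The named gene with the ratios most like those of CanB2, by Euclidean distance over the 3 arrays, was GstO1 (-0.29, -0.42 and -0.72), followed by mtrm at a distance of 0.055. For CanB it was PIP4K at 0.064 and then SLC5A11, for gnu PIP4K at 0.042 and then sqz, and for png CG17544 at 0.051 and then pum. For the genes near 0 such matches were common, as 1513 named genes lay within a distance of 0.2 of Pp2B-14D and 1331 of sra, against 21 for CanB2. The nearest genes were kek5 and CG13001 for CanA1, Mul1 and ste24a for Pp2B-14D, and Dg and CG6330 for sra.

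Proteins that act with calcineurin, or through which drugs reach it, were looked at next. Of 7 such genes 4 were tested, and Cyp1, a cyclophilin, was called lower, while 3 were not called and 0 were higher. Of all features tested, 1.68% were called lower and 0.648% higher. Cyclophilins fold proteins and, bound to cyclosporin, block calcineurin. Cyp1 had -0.43, -0.63 and -0.76 in experiments 3, 4 and 5, with a mean of -0.60 ± 0.17, or 1.52-fold lower (limma adjusted p = 0.0407). Its 2 clones had like means of -0.61 and -0.60, of which the former passed on its own and the latter did not (limma adjusted p = 0.0431 and 0.0524). The call was near the threshold and was lost without any 1 of the 3 arrays, at means of -0.69, -0.59 and -0.53 without experiments 3, 4 and 5 (limma adjusted p = 0.147, 0.103 and 0.182). It was also lost with array weights (-0.57, limma adjusted p = 0.0392) and once the spread of the arrays was made equal (limma adjusted p = 0.0620). Without any 1 array, or with the spread made equal, 0 of all features were called, so those losses are not particular to Cyp1. Fkbp12, the target through which FK506 blocks calcineurin, had 0.083 ± 0.10, and the NFAT gene, related to the transcription factors that calcineurin activates in vertebrates, -0.033 ± 0.17. The median of the 4 genes was -0.040.

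Of 20 genes for calcium channels, pumps, sensors and calcium-dependent enzymes, limma could be run on 14 and called 0, while 2 of the 14 were lower and 0 higher at an unadjusted p under 0.05. This is near the 14.9% of all features that were lower. The 2 were Letm1, a mitochondrial membrane protein (-0.23 ± 0.11, limma adjusted p = 0.152), and Calx, a sodium/calcium exchanger (-0.32 ± 0.23, limma adjusted p = 0.154). Trpm, the channel through which calcium enters the egg at activation, had 0.052, -0.083 and 0.15 in experiments 3, 4 and 5. Its mean was 0.040 ± 0.12 (limma adjusted p = 0.764), a direction that turned without experiment 5. Members of this list were about evenly spread around 0, with 8 means below and 6 above and a median of -0.035.

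Genes of meiotic exit and of the RNA and cyclin control that PNG acts on were also not called in limma, in 17 of 17 tested of 26. At an unadjusted p under 0.05, 4 of the 17 were lower and 0 higher, beside 14.9% and 10.1% of all features, and the median was -0.012. mtrm, an inhibitor of the Polo kinase in the oocyte, was the lowest of them at -0.51 ± 0.22, with -0.38, -0.39 and -0.76 in experiments 3, 4 and 5 (limma adjusted p = 0.0703). APC7, a subunit of the anaphase-promoting complex, had -0.44 ± 0.073 and a limma adjusted p of 0.0435. It passed the adjusted p but was 1.36-fold lower and so missed the fold minimum. cort, which activates that complex in female meiosis, had -0.27 ± 0.042 (limma adjusted p = 0.0878), and me31B, a repressor of maternal RNAs, -0.31 ± 0.15 (limma adjusted p = 0.114). pum, a translational repressor that PNG counteracts, had -0.27 ± 0.28, and smg, a maternal RNA destabiliser whose translation requires PNG, 0.12 ± 0.11 (limma adjusted p = 0.253 and 0.355). The mean of pum moved to -0.16 without experiment 4 and to -0.43 without experiment 5.

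A further list held the other phosphatases of the calcineurin family and subunits of PP2A. Of 17 such genes 14 were tested, 0 were called in limma, and 2 were higher and 0 lower at an unadjusted p under 0.05, beside 10.1% and 14.9% of all features. Means were above 0 for 11 of the 14, with a median of 0.075. The 2 were Pp4-19C at 0.18 ± 0.027 and Pp1-13C at 0.17 ± 0.050 (limma adjusted p = 0.164 and 0.183), both catalytic subunits. These lists were written with earlier results of these arrays known, and cort, me31B, smg, Trpm, Fkbp12 and NFAT were named once their values were seen.

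**Figure D3:**
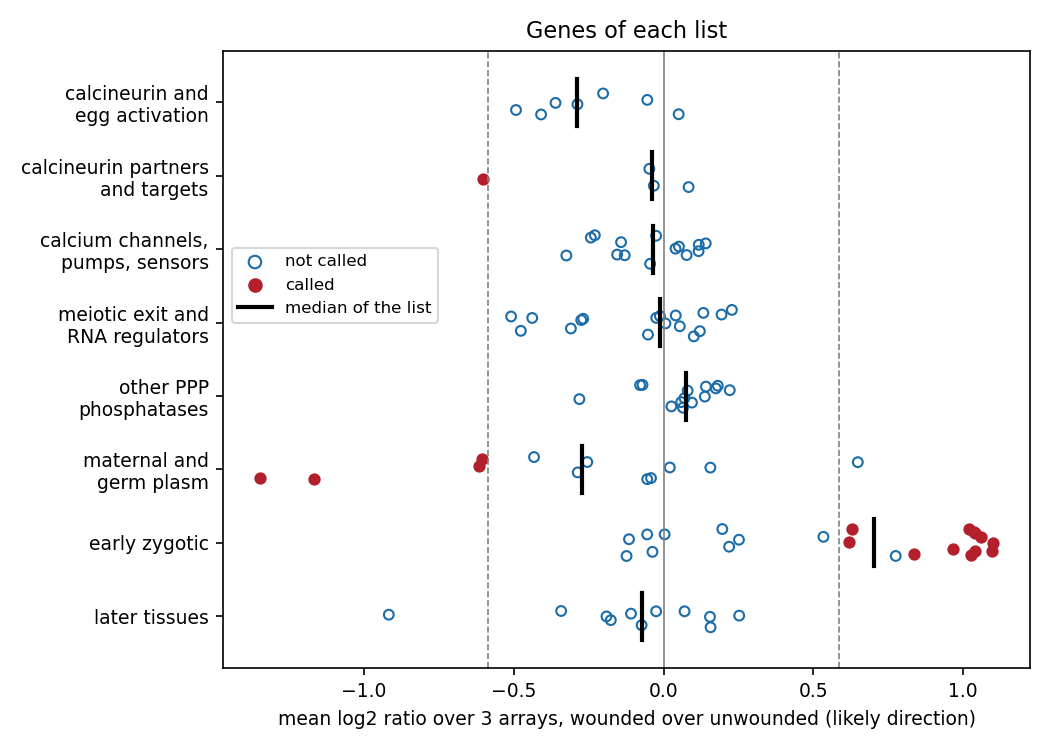
Mean log2 ratio over 3 arrays (x axis) of the tested genes in each of 8 lists (rows). Open circles are genes not called, filled red circles called genes, black bars the median of the list, and dashed lines a 1.5-fold change. Medians were -0.29 for the 7 calcineurin and egg activation genes, -0.27 for the maternal and germ plasm RNAs and 0.70 for early zygotic genes. In the same order, means ran from -0.49 to 0.050, from -1.35 to 0.65 and from -0.12 to 1.10.

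Some markers of embryonic age were called on the same arrays. Of 12 tested maternal and germ plasm RNAs, 4 were called lower, namely dhd, exu, vas and del, and 0 higher, beside 1.68% and 0.648% of all features. The median of the 12 was -0.27, with a range from -1.35 to 0.65. Of 22 tested early zygotic genes, 12 were called higher, led by dpn, nullo, Doc1 and Tom, and 0 lower, with a median of 0.70. Of all features, 0.648% were called higher and 1.68% lower. Means of the 22 were above 0 for 18 and below 0 for 4, and ran from -0.12 to 1.10. Of the 8 called genes named here, dhd, exu, dpn and nullo are also among the top lowered or raised genes that the study names. Without any 1 array no feature of the whole table was called, these 8 genes included. The means of the 8 stayed of similar size, at -1.37 to -1.32 for dhd and 0.94 to 1.26 for dpn. However, del fell under the 1.5-fold minimum without experiment 4 (-0.55), as did vas without experiment 5 (-0.57). The median of the maternal list was -0.28, -0.24 and -0.38 in experiments 3, 4 and 5. Of 11 tested markers of later tissues 0 were called in limma. At an unadjusted limma p under 0.05, 3 were lower and 0 higher, beside 14.9% and 10.1% of all features. The 11 markers had 7 means below and 4 above 0 and a median of -0.073. Of these, elav had -0.34 and NimC1 -0.92, the latter from 1 spot at -2.33 and 2 at -0.21, and -0.55 without experiment 4. The part that embryonic age has in the ratios of CanB2, CanB and gnu was not tested. The ratio table holds no level per condition, so these markers cannot show how much of each RNA the embryos held.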

How the data were processed

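Two-colour spotted cDNA arrays were analysed for 3 experiments, each with wounded and unwounded RNA on 1 array. The deposited values are log2 ratios, 1 per spot and array, which the authors made by removing spots near background, dim or marked as questionable, and by loess normalization in limma. Loess sets the bulk of ratios near 0, so a shift shared by most transcripts cannot be seen. Brightness per channel was not analysed here, and with 3 arrays their number sets the precision.

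Of 12144 spots, 9917 had 1 gene symbol, updated by gene identifier to RefSeq's Release 6 table, which was used for names and gene order only. Another 625 had several symbols and 1442 none, and these stayed features of their own. The 160 control spots were left out. Spots of a gene were averaged, and the 10183 features with values on all 3 arrays were tested against 0 with limma (version 3.58.1, R 4.3.3, intercept only, two-sided, Benjamini-Hochberg). Use of limma and the 1.5-fold minimum follow the methods, and averaging and the model were chosen here. Arrays correlated across features at Pearson's r = 0.390, 0.498 and 0.315, with no test, since genes are not replicates.

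Named genes were all members, up to 4 called genes per list or else the 2 with the smallest p, the 2 nearest genes of each member, and ImpL2, geko, dhd and Cyp6a19. Outside this rule, cort, me31B, smg, Trpm, Fkbp12, NFAT, stau and the clones RH11383 and GM09534 were chosen after their values were seen. The members and lists were chosen with earlier results of these data known. Alternatives were each probe on its own, at least 2 arrays, centring, scaling, array weights, single-symbol probes, an unmoderated test, other thresholds, the opposite sign and leaving out each array.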

Additional observations from a re-analysis of the deposited data

How the results depend on the processing

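The count of members called stayed at 0 higher and 0 lower in limma in all 13 alternatives run for it. These included no fold minimum, an adjusted p under 0.10 with the fold minimum kept, limma's test against a 1.5-fold change and the opposite sign. Limma's test against a 1.5-fold change called 0 of all features. The count could not differ there, with the opposite sign, or in other settings that called 0 of all features. The limma adjusted p of CanB2 ran from 0.0642 to 0.284, that of gnu from 0.0660 to 0.277. CanB was 0.038 from the clone of several genes alone, a setting chosen after seeing the data. With array weights 5 members were lower at an unadjusted p under 0.05, against 3 without weights. Over all 10183 features, 2837 passed that p in either direction with weights, against 2543 without. The count of members lower was 4 with centring, with single-symbol probes and without experiment 4 or 5. In either direction, 2614 of 10183 features passed that p with centring and 2085 of 8177 with single-symbol probes. Without experiment 4 it was 2446 of 10183, and without experiment 5 it was 1675. The 1 call among calcineurin partners (Cyp1) fell to 0 with scaled arrays (adjusted p = 0.0620) and with array weights, where the latter left its change under 1.5-fold, and to 0 to 0 with 1 array left out. With 1 array left out NFAT ran from -0.11 to 0.063 (without experiment 3) and Trpm from -0.015 (without experiment 5) to 0.10, and Trpm had -0.042 for clone GH22805 alone. With scaled arrays, 1 array left out or no variance moderation, 0 of all features were called (1473 to 2546 at an unadjusted p under 0.05). Each ratio already pairs wounded with unwounded RNA on 1 array, so no further replicate pairing was fitted.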
